A study of Mus musculus with 6 samples.

Results

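*Fxyd2*, *Fxyd5*, *Atp1b1*, *Atp1b3* and *Slc8a1* encode small partners and β subunits of the sodium pump and a sodium/calcium exchanger, and they are 5 of the 15903 genes tested. They were chosen by name, with results of the comparison of NaCl with control in these same libraries known. Their values in that comparison are therefore a description and carry no test. All 5 passed the only filter, a sum of at least 10 counts over the 6 libraries. RNA was sequenced from bone-marrow-derived macrophages (BMDMs), macrophages that grow out of marrow in culture with the growth factor M-CSF. Marrow came from 3 Cx3cr1GFP mice of the C57BL/6J strain, which carry GFP at *Cx3cr1*. Cells of each mouse were left unstimulated (control, n = 3) or received 62 mM excess NaCl for 24 h (NaCl, n = 3), so that replicates 1, 2 and 3 of both groups are the same 3 animals. The GFP allele and M-CSF were common to both groups. The age of the mice is not given in the sources used here, and no library with another osmolyte was analysed here.

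The sodium pump exports sodium and imports potassium at the expense of ATP. Its α subunit carries the catalytic site, its β subunit is needed for the α subunit to fold and reach the plasma membrane, and proteins of the FXYD family bind the complex and tune its affinity for ions. The sodium gradient that the pump maintains drives secondary transporters, among them the sodium/calcium exchangers and the sodium/proton exchangers.

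Total counts ranged from 8520433 to 20123570 in the control libraries and from 4088065 to 11610020 in the NaCl libraries. NaCl replicate 3 was the smallest and had no count for 1235 of the genes tested, against 79 to 309 in the other 5 libraries. All 10 macrophage markers were detected, and their summed level ranged from 15783 to 18005 CPM (counts scaled to library size with TMM factors) in control and from 24937 to 32341 CPM in NaCl. By the quasi-likelihood test of edgeR 2 of them, *Lyz2* and *Cd14*, were higher in NaCl, while the block for the mouse gave 3 higher, with *Csf1r* added, and 1 lower, *Mrc1*. *Lyz2*, with a log2 fold change of 0.96, made most of the rise of the sum. Of 6 osteoclast markers, *Calcr* had no count in any library, *Ctsk* was higher in NaCl in the same test, and the summed level was 579 to 663 CPM in control and 442 to 569 CPM in NaCl. The block for the mouse gave 2 of these markers higher, *Ctsk* and *Acp5*, and 1 lower, *Atp6v0d2*. Over all genes tested, 76 (0.478%) were higher and 28 (0.176%) were lower at an adjusted p under 0.05. With the mouse as a replicate block these were 732 (4.6%) and 684 (4.3%). The median log2 fold change of all genes was -0.0065, and that of the 5 genes was 0.69, which is the value of the barely detected *Atp1b1* and became 0.28 without NaCl replicate 2. In RNA from a whole culture, fewer cells of a type and less RNA per cell cannot be told apart, and this holds for every value below.

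*Fxyd2* (ENSMUSG00000059412.8, chromosome 9) encodes the γ subunit of the sodium pump, known best from kidney tubules. The control libraries of mice 1, 2 and 3 held 4, 3 and 5 counts of it, and the NaCl libraries of these mice held 226, 759 and 98 counts. In CPM these were 0.455, 0.272 and 0.252 in control and 25.3, 68.8 and 23.5 in NaCl. The control libraries were thus close to the limit of 3 counts, every NaCl library lay far above them, and the highest NaCl value was that of mouse 2. The mean was 0.326 ± 0.112 CPM in control and 39.2 ± 25.7 CPM in NaCl (SD, n = 3 each), a log2 fold change of 6.97 (SE 0.57), or 125-fold. Without NaCl replicate 2 it was 6.27, or 77.3-fold, and with a prior count of 2 it was 6.34, or 80.8-fold. Fitted with the mouse as a replicate block, it was 6.83 (SE 0.27).

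Because so few control counts stand behind this fold, the precision of the *Fxyd2* ratio was also computed from the counts alone. Within mouse 1 the ratio of NaCl to control was 55.5, with an exact 95% interval from 21.4 to 205.6. Within mouse 2 it was 253.2 (86.3 to 1230) and within mouse 3 it was 93.1 (38.6 to 293). Summed over the mice, 12 control counts stood against 1083 NaCl counts, a ratio of 148.2 (84.5 to 287.7). These intervals cover counting error only. The intervals of the 3 mice overlapped, and the few control counts make each of them wide. This overlap does not show that the mice were alike, as the NaCl levels ran from 23.5 to 68.8 CPM. None (0%) of the 75-base windows of *Fxyd2* occurs in another annotated gene.

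Markers of epithelium and kidney tubule, where *Fxyd2* is abundant, were looked at beside it. Of the 10 genes on this list, *Aqp2*, *Krt19*, *Krt8*, *Slc12a1*, *Slc12a3* and *Umod* were at 0 counts in all 6 libraries. The summed level of the list was 0.455 to 1.46 CPM in control and 1.45 to 3.63 CPM in NaCl. Over all 6 libraries *Cdh1* had 102 counts, *Krt18* 2, *Cdh16* 1 and *Epcam* 1, so the sum was almost wholly that of *Cdh1*. The only member with enough counts to be tested was *Cdh1*, the gene of E-cadherin, with 3, 12 and 28 counts in control and 13, 39 and 7 in NaCl. Its adjusted p in edgeR was 0.375 without a replicate block and 0.0496 with the mouse as one, where it was higher in NaCl.

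*Fxyd5* (ENSMUSG00000009687.15, chromosome 7) encodes dysadherin, a member of the FXYD family that binds the pump and reduces adhesion between cells. It had 435, 414 and 441 CPM in the control libraries of mice 1, 2 and 3 and 510, 389 and 533 CPM in the NaCl libraries of these mice. The groups overlapped, as the NaCl value of mouse 2 lay under all control values whereas those of mice 1 and 3 lay above them. The mean was 430.1 ± 13.9 CPM in control and 477 ± 77.1 CPM in NaCl (SD, n = 3 each), with a log2 fold change of 0.15 (SE 0.14). In mice 1, 2 and 3 the log2 ratio was 0.23, -0.09 and 0.27.

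*Atp1b3* (ENSMUSG00000032412.9, chromosome 9) encodes the β3 subunit. It had 257, 289 and 303 CPM in the control libraries of mice 1, 2 and 3 and 455, 759 and 638 CPM in the NaCl libraries of these mice. All NaCl libraries lay above all control libraries, and mouse 2 again had the highest NaCl value. The mean was 283 ± 23.9 CPM in control and 617 ± 153 CPM in NaCl (SD, n = 3 each). The log2 fold change was 1.13 (SE 0.18), or 2.18-fold, and 1.10 (SE 0.12) with the replicate block. The log2 ratio of NaCl to control in mice 1, 2 and 3 was 0.83, 1.39 and 1.07. *Atp1b3* shares 5.15% of its 75-base windows with other genes, chiefly *Gm1848*.

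*Atp1b1* (ENSMUSG00000026576.13, chromosome 1) encodes the β1 subunit, the β subunit of many epithelia. It was barely detected, with 0, 3 and 8 counts in the control libraries of mice 1, 2 and 3 and 2, 9 and 0 counts in the NaCl libraries of these mice. Each group held 11 counts in all, and the groups overlapped. The mean was 0.225 ± 0.206 CPM in control and 0.346 ± 0.422 CPM in NaCl (SD, n = 3 each). The ratio of the summed counts, scaled for library size, was 1.64 with an exact 95% interval from 0.646 to 4.18. This interval covers counting error only and leaves out the spread between mice. In mice 1, 2 and 3 the log2 ratio was 1.13, 1.13 and -1.65. At this depth nothing is read from these values. In addition, 18.7% of its exonic bases overlap *Nme7* on the opposite strand, and the counting did not use strand, so that reads of these bases cannot be assigned to either gene.

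*Slc8a1* (ENSMUSG00000054640.16, chromosome 17) encodes the sodium/calcium exchanger NCX1 of the plasma membrane, which exports calcium in exchange for sodium. It had 97.7, 94.8 and 97.1 CPM in the control libraries of mice 1, 2 and 3 and 92.6, 79.1 and 105 CPM in the NaCl libraries of these mice. The control libraries lay close together, and the NaCl libraries lay on both sides of them. The mean was 96.5 ± 1.497 CPM in control and 92.2 ± 12.9 CPM in NaCl (SD, n = 3 each), and the log2 fold change was -0.07 (SE 0.14).

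**Figure D1:**
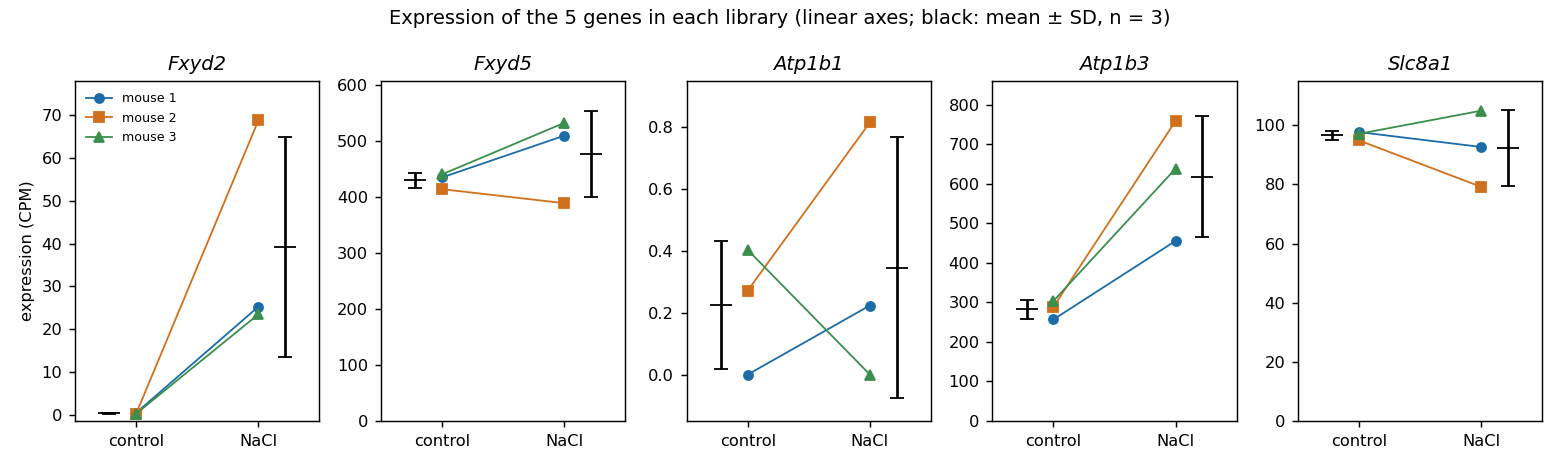
Expression of the 5 genes in CPM (linear y axis, one panel per gene) in the 3 control and 3 NaCl libraries; points are libraries, lines join the libraries of one mouse, and bars give the mean and SD. The NaCl points of *Fxyd2* (23.5 to 68.8 CPM) and *Atp1b3* (455 to 759 CPM) lie above all control points, and those of *Fxyd5*, *Atp1b1* and *Slc8a1* overlap the control points.

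Of the 5 genes, 2 had all NaCl libraries above all control libraries, and the other 3 overlapped. Over all genes tested, 1418 (8.92%) had all NaCl libraries above and 1611 (10.1%) had all NaCl libraries below the control libraries. Since this comparison was known when the 5 genes were chosen, nothing is read from their number. In the plot of expression by library, mouse 2 had the highest NaCl value for both *Fxyd2* and *Atp1b3*, and the lowest was that of mouse 3 for *Fxyd2* and of mouse 1 for *Atp1b3*.

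The promoter windows of the genes were taken from RefSeq (GRCm38.p6), each running from 250 bases before to 50 bases after an annotated start. By symbol, 4 of the 5 genes matched, *Fxyd2* being the one that did not, and *Atp1b3* had 2 starts. The windows were searched on both strands for TGGAAA, the core of the tonicity-responsive enhancer (TonE) that NFAT5 binds, and for the full TonE consensus. The 2 windows of *Atp1b3*, the matched gene whose groups did not overlap, are shown 5′ to 3′ on the strand of the gene, the minus strand, with the TonE match in capitals.
Atp1b3 start A, chr9:96364382-96364681: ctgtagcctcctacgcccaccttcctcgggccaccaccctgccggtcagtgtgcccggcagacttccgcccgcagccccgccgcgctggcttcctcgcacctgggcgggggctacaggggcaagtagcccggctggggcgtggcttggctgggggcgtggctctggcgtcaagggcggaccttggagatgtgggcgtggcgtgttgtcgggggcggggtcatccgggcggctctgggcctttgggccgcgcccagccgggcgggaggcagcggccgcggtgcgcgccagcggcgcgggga
Atp1b3 start B, chr9:96363666-96363965: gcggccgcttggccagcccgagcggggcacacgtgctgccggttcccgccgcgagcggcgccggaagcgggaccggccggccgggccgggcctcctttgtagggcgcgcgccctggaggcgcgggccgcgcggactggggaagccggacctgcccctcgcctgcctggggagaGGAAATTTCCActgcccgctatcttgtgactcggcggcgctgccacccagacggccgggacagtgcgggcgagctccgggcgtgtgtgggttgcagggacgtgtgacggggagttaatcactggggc

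Start B held 1 core and 1 full consensus, from 77 to 67 bases before the start, on the strand opposite to the gene. Start A and the windows of *Fxyd5*, *Atp1b1* and *Slc8a1* held neither. Among all 32851 promoter windows of this length, 7040 (21.4%) held the core and 1628 (4.96%) held the full consensus. The same letters of start B also match the NF-κB consensus, which was searched for after this match was seen and occurs in 3671 (11.2%) of the windows. The *Atp1b3* windows had a GC content of 76% (start A) and 74.7% (start B), against a median of 52.7% over all windows. A match is a description of the letters and not a binding site.

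To compare levels between genes, CPM was divided by the length of the exons in kb (CPM per kb), and the tested genes of the β subunit, FXYD and sodium/calcium exchanger lists were ordered by it. In control BMDMs, *Atp1b3* came first with a level of 118 ± 9.99 CPM per kb and *Fxyd5* second with 103 ± 3.32 CPM per kb (SD, n = 3 each), and these neighbours did not overlap. Of the exchangers, the mitochondrial one, *Slc8b1*, had a level of 30.3 ± 3.41 CPM per kb and *Slc8a1* had 5.13 ± 0.0796 CPM per kb. At the bottom of the 10 genes ordered in control were *Fxyd2* with 0.0815 ± 0.0279 CPM per kb and *Atp1b1* with 0.0731 ± 0.0668 CPM per kb, which overlapped each other. *Fxyd2* also overlapped *Fxyd4*, the gene next above it.

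In NaCl, *Atp1b3* came first with a level of 258 ± 64.0 CPM per kb and *Fxyd5* second with 114 ± 18.4 CPM per kb, without overlap. *Fxyd2*, with 9.78 ± 6.41 CPM per kb, moved from place 9 to place 4 of 10, above *Slc8a1* with 4.90 ± 0.686 CPM per kb and below *Slc8b1* with 38.4 ± 5.63 CPM per kb. It overlapped neither of these neighbours. In CPM, *Slc8a1* (mean 92.2) was above *Fxyd2* (mean 39.2) in NaCl. Their order per kb therefore rests on the length of *Slc8a1*, whose joined exons span 18807 bases. The lowest levels were those of *Atp1b1*, with 0.112 ± 0.137 CPM per kb, and *Fxyd4*, with 0.0907 CPM per kb, which overlapped. The length used matters for *Fxyd2*, whose exons joined span 4005 bases while its longest transcript has 1694. With the longest transcript as length its level was 0.193 CPM per kb in control and 23.1 CPM per kb in NaCl, and its place was 7 in control and again 4 in NaCl. *Fxyd5* and *Atp1b3* changed places in control with this length.

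**Figure D2:**
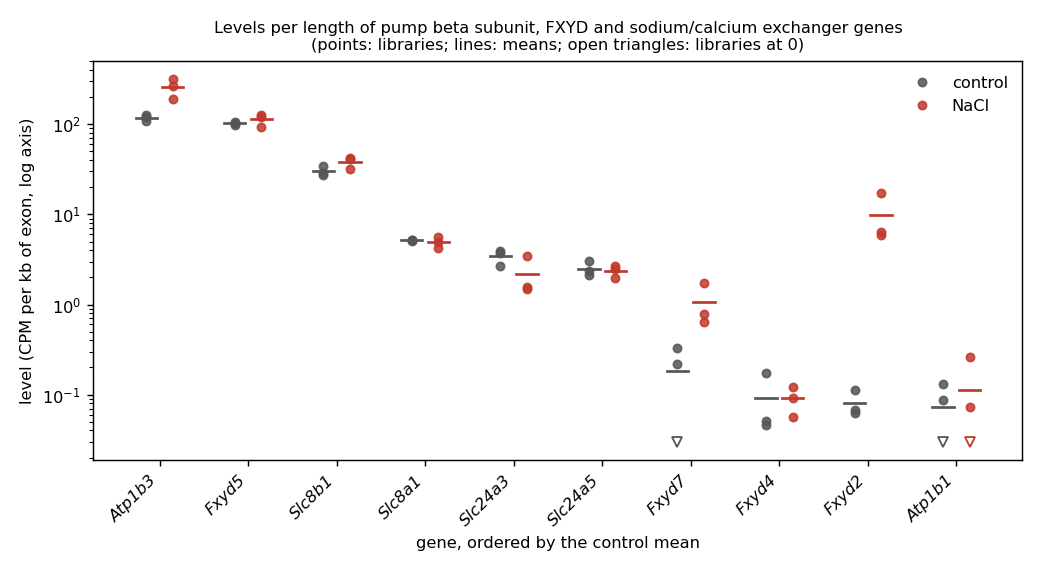
Level of the pump β subunit, FXYD and sodium/calcium exchanger genes in CPM per kb of exon (log axis) in control and NaCl; points are libraries, lines are means and open triangles are libraries at 0. *Fxyd2* lies among the lowest genes in control (mean 0.0815 CPM per kb) and between *Slc8b1* and *Slc8a1* in NaCl (mean 9.78 CPM per kb).

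Transcripts of the β subunit and FXYD genes were compared by ratios of levels per kb. These are ratios of RNA and do not give the makeup of the complex in protein. Only tested genes entered them. The β level was summed over *Atp1b1* and *Atp1b3*, and the FXYD level over *Fxyd2*, *Fxyd4*, *Fxyd5* and *Fxyd7*. Nearly all of the β level was that of *Atp1b3* in both groups, with 99.9% in control. Within the FXYD family, *Fxyd2* made up 0.109%, 0.0686% and 0.0597% of the level in the control libraries of mice 1, 2 and 3 and 4.90%, 15.5% and 4.35% in the NaCl libraries of these mice. With the longest transcript as length the mean *Fxyd2* share was 0.134% in control and 13.0% in NaCl, against 0.0790% and 8.25% with the joined exons. *Fxyd5* was the major FXYD transcript in both groups, with a mean share of 99.7% in control and 90.9% in NaCl. The FXYD level over the β level was 0.973, 0.819 and 0.830 in the control libraries of mice 1, 2 and 3 and 0.675, 0.349 and 0.505 in the NaCl libraries of these mice. The groups did not overlap, and the mean ratio was 0.874 ± 0.0858 in control and 0.509 ± 0.163 in NaCl (SD, n = 3 each). With the longest transcript as length the mean ratio was 1.02 in control and 0.623 in NaCl. The mean level of *Atp1b3* went from 118 CPM per kb in control to 258 in NaCl, and that of *Fxyd5* from 103 to 114. These ratios contain genes chosen on this comparison and are given without a test.

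**Figure D3:**
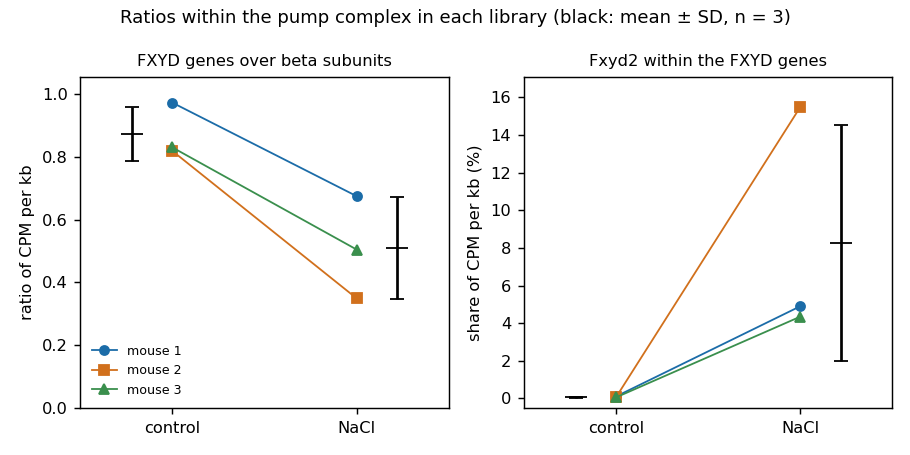
Ratios of levels per kb in each library, with one panel for FXYD over β and one for the *Fxyd2* share of the FXYD level in percent, with joined exons as length; points are libraries, lines join the libraries of one mouse, and bars give the mean and SD. In NaCl the FXYD over β ratio (0.349 to 0.675) lies below all control points, and the *Fxyd2* share (4.35% to 15.5%) lies above them.

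The other genes of sodium and calcium transport were followed on lists of 87 genes, of which 82 are not among the 5 genes described above. Of these 82, 38 were tested, 24 had no count and 20 had 1 to 9 counts. By the quasi-likelihood test of edgeR, 0 of the 38 were higher and 0 were lower. In that test 11 of the 38 had an unadjusted p under 0.05, against 2010 of all 15903 genes tested. DESeq2 called 2 of the 38 higher and 0 lower, against 245 higher and 155 lower of all genes. With the mouse as a replicate block, 5 were higher (13.2%, against 4.6% of all genes) and 4 were lower (10.5%, against 4.3%). All NaCl libraries lay above the control libraries for 11 of the 38 (28.9%, against 8.92% of all genes) and below them for 2 (5.26%, against 10.1%). The lists were chosen with earlier results of these data known, so nothing is read from these shares. The 11 also include *Fxyd7* and *Atp2b3*, whose few counts are given next. Of the 11, *Fxyd7* had 2, 0 and 3 counts in control and 4, 6 and 5 in NaCl. *Atp2b3*, a calcium pump gene, had 0, 1 and 2 counts in control and 5, 4 and 4 in NaCl. Both lay near the floor and passed the filter mainly through their NaCl counts, so nothing is read from them. The median log2 fold change of the 38 was 0.21, with a range from -0.93 to 2.74, both ends being genes that did not pass in either fit. The upper end was *Atp2b3*, with 16 counts in all.

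Of the β subunit genes outside the 5, *Atp1b2* had 5 counts in all and *Atp1b4* had 2, so that neither was tested.

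Of the other FXYD genes, *Fxyd7* had 2, 0 and 3 counts in control and 4, 6 and 5 counts in NaCl, and edgeR's adjusted p was 0.283, or 0.0717 with the block. *Fxyd4* had 3, 1 and 2 counts in control and 1, 2 and 1 in NaCl. Neither passed the threshold. *Fxyd1* had 4 counts in all, *Fxyd6* had 5 and *Fxyd3* had none. *Fxyd2* and *Fxyd5* were therefore the 2 FXYD genes with over 20 counts in all.

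Of the sodium/calcium exchangers, *Slc8b1*, which works in mitochondria, had a level of 105 ± 11.8 CPM in control libraries and 133 ± 19.5 CPM in NaCl libraries (SD, n = 3 each; adjusted p = 0.380 in edgeR's test and 0.0693 with the block). *Slc24a3*, a potassium-dependent exchanger, had a level of 15.7 ± 3.07 CPM in control libraries and 9.94 ± 5.21 CPM in NaCl libraries. It fell by 0.67 on the log2 scale with the mouse as a replicate block (adjusted p = 0.0226 in edgeR, against 0.455 without the block). The remaining tested exchanger of this list, *Slc24a5*, had a log2 fold change of -0.06, and 39.5% of its exonic bases overlap *Myef2* on the opposite strand.

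Of 10 tested sodium/proton exchangers, 1 was higher and 1 was lower with the mouse as a replicate block (10% each, against 4.6% and 4.3% of all genes). *Slc9b2*, an organellar exchanger, had 1.02, 4.53 and 4.44 CPM in the control libraries of mice 1, 2 and 3 and 6.03, 18.2 and 11.98 CPM in the NaCl libraries of these mice. The groups did not overlap, and the control value of mouse 1 lay far under the other two. Its log2 fold change was 1.81 (SE 0.49, adjusted p = 0.162 in edgeR's test), and it rose by 1.87 with the block (adjusted p = 1.96e-06) and passed in DESeq2 (adjusted p = 0.00809). *Slc9a9*, an exchanger of endosomes, had a level of 56.6 ± 28.1 CPM in control libraries and 35.8 ± 12.2 CPM in NaCl libraries (SD, n = 3 each). It was lower in 3 of 3 mice and fell by 0.62 on the log2 scale with the block (adjusted p = 0.00215 in edgeR, against 0.465 without the block).

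Of the proteins that bind these transporters, *Slc9a3r2*, the gene of the scaffold NHERF2, had 9, 7 and 13 counts in the control libraries of mice 1, 2 and 3 and 26, 27 and 12 counts in the NaCl libraries of these mice. In CPM it was at 0.771 ± 0.219 in control and 2.74 ± 0.256 in NaCl (SD, n = 3 each), without overlap. Its log2 fold change was 1.85 (SE 0.34), and its adjusted p was 0.0503 in edgeR, 0.00213 in edgeR with the replicate block and 0.0105 in DESeq2. *Slc9a3r1*, the gene of the related scaffold NHERF1, had a level of 108 ± 8.97 CPM in control libraries and 81.2 ± 15.3 CPM in NaCl libraries, and fell by 0.43 on the log2 scale with the block (adjusted p = 0.0220 in edgeR, against 0.314 without the block). *Chp1*, which encodes a cofactor of plasma membrane sodium/proton exchangers, was the most abundant of this list by the mean over all 6 libraries, though not in control, and had a log2 fold change of 0.09 (adjusted p = 0.784 in edgeR's test).

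Of the 4 tested sodium bicarbonate and phosphate cotransporters, 2 (50%, against 4.6% of all genes) were higher with the mouse as a replicate block. Without the block 0 were, and nothing is read from a count in so short a list. *Slc4a7*, a sodium bicarbonate cotransporter, had a level of 91.7 ± 3.96 CPM in control libraries and 130 ± 31.7 CPM in NaCl libraries, and rose by 0.48 on the log2 scale with the block (adjusted p = 0.0132 in edgeR, against 0.263 without the block). *Slc20a1*, a sodium phosphate cotransporter, had a level of 83.1 ± 24.0 CPM in control libraries and 113 ± 42.9 CPM in NaCl libraries. It rose by 0.41 with the block (adjusted p = 0.0361 in edgeR, against 0.597 without the block), and 13.1% of its exonic bases overlap *9830144P21Rik* on the opposite strand. Of the 7 tested calcium pumps, *Atp2b1*, a pump of the plasma membrane, fell by 0.39 on the log2 scale with the block (adjusted p = 0.0473 in edgeR, against 0.544 without the block). It had a level of 309 ± 56.5 CPM in control libraries and 240 ± 72.8 CPM in NaCl libraries. *Atp2a2*, the pump of the endoplasmic reticulum and the most abundant of this list by the mean over all 6 libraries, though not in control, had a log2 fold change of -0.08. Of the 21 sodium channel genes, 13 had no count and 5 were tested. None (0) of these 5 passed in edgeR's test with or without the block or in DESeq2, and 1 had an unadjusted p under 0.05. None of the 3 proton/potassium pump genes had enough counts to be tested.

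**Figure D4:**
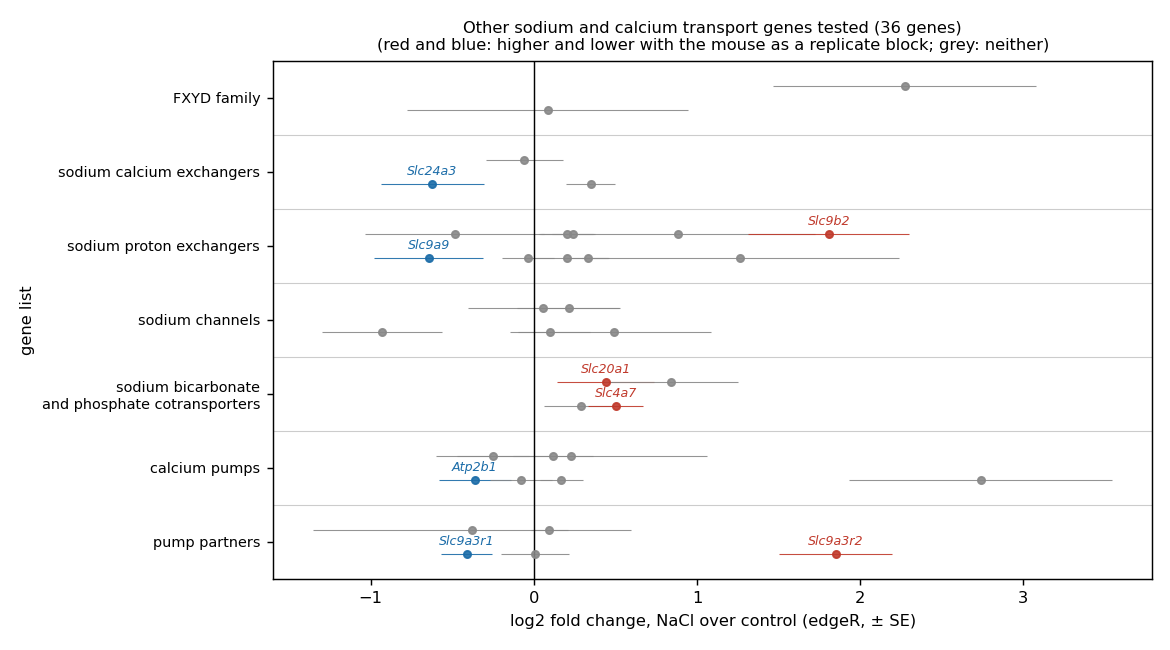
Log2 fold change of NaCl over control (x axis, edgeR without the replicate block) for 36 of the 38 other transport genes tested, 1 row per gene list; points are genes and bars are SE. Red and blue mark and name the 4 genes higher and the 4 genes lower in the fit that has the mouse as block, grey marks the rest, and the values range from -0.93 to 2.74.

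The genes whose log2 CPM over the 6 libraries was most like that of each of the 5 were found among 9923 other genes with a mean of at least 50 counts (9924 for *Atp1b1*). Over so many genes and 6 libraries that share depth and treatment, high coefficients are found for every gene, and they are a description. For *Fxyd2* they were *Shb* (Pearson's r = 0.996), *Hmgn5* (0.996) and *Zfp710* (0.995), and for *Atp1b3* they were *Suds3* (0.999), *Sephs1* (0.996) and *Gsap* (0.995). For *Fxyd5* the highest was *Zfp825* (0.993), followed by *Hnrnpul1* (0.988) and *Gm16185* (0.980). For *Slc8a1* the genes were *Pbrm1*, *Stag2* and *Gpbp1* (0.995 each). *Atp1b1*, with 22 counts in all, had *Ssr4* (0.993), *Mrpl58* (0.988) and *Cdk16* (0.983). Between *Fxyd2* and *Atp1b3* the coefficient was 0.946. Both were higher in all NaCl libraries and were chosen with this comparison known, so a high value follows from the group difference and nothing is read from it. With *Fxyd2* the coefficient was 0.284 for *Fxyd5*, 0.201 for *Atp1b1* and -0.436 for *Slc8a1*.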

How the data were processed

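RNA-seq libraries of control and NaCl-treated BMDMs (n = 3 each) were analysed from the tables of the series. The authors trimmed 75-base single-end reads with fastp 0.20.0, aligned them to mm10 with STAR 2.7.10b and counted reads per gene without strand, and deposited the raw count of each gene. They also deposited a normalized signal, the same counts divided by a DESeq2 (1.40.2) size factor per library, which was used only for gene symbols and to check that each library has a single factor. The methods name mm10 together with GENCODE vM32, so genes are placed by chromosome only. Versions are those of the methods and the submitters' processing notes.

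The 5 genes, the transport lists and the marker lists were chosen with earlier results of these data known. Of 57010 genes, the 15903 whose counts summed to at least 10 were tested with edgeR 4.0.16 (R 4.3.3; glmQLFit, glmQLFTest, TMM, no further term), with Benjamini-Hochberg adjustment over all of them and a threshold of 0.05. SE is the log2 fold change divided by the square root of F. CPM used TMM-scaled library sizes, and log2 CPM a prior count of 2. Ratios of counts have exact binomial intervals, and 3 counts was the floor. The mouse label gives the same animals in both groups. Deviations of same-mouse libraries from their group means correlated at 0.426, 0.151 and 0.217 across genes, and other pairs at -0.35 to 0.124, so the mouse was added as a replicate block in a further fit, given where it changes a call. Named were all 5 genes, every α, β and FXYD gene, list genes past the threshold with or without the block, the most abundant gene of each list, and the 3 genes most correlated with each of the 5. *Slc24a5* and *Atp2b3* were added after their values were seen. Some genes that this rule names are not reported here, and they remain in the counts over the lists.

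Exon lengths, shared 75-base windows and overlaps came from GENCODE M21, in which 15484 (97.4%) of the genes tested were found by identifier. Only 13 (0.08%) had the same identifier version, so these lengths, windows and overlaps may not be those of the gene models counted. The alternatives were DESeq2 1.42.0, the block, other scalings and filters, thinning and leaving out each library. The code was tested on simulated data. Of the other marker lists, with the block 1 neutrophil gene and 1 T and NK cell gene were lower, and no further gene of these lists or of the dendritic cell, B cell, mast cell and basophil or stromal lists passed in edgeR with or without the block. Of the erythroid and of the muscle and cardiomyocyte genes 0 could be tested. The levels of these lists were 189 to 395 CPM in control and 207 to 323 CPM in NaCl for neutrophils and at most 12.5 CPM in any library for each of the others. Figures were drawn with matplotlib 3.10.9 in Python 3.11.15.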

Additional observations from a re-analysis of the deposited data

How the results depend on the processing

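The log2 fold changes of *Fxyd2* (6.27 to 7.23 over 15 alternatives), *Fxyd5* (0.06 to 0.28), *Atp1b3* (0.96 to 1.31) and *Slc8a1* (-0.17 to 0.04) moved by less than the SD of the ratios within mice. That of *Atp1b1*, which could not be fitted under filterByExpr or after thinning, lay between -0.77, without NaCl replicate 2, and 1.45, without control replicate 3. Of all genes tested, 76 were higher and 28 lower. These counts became 732 and 684 when the mouse entered as a replicate block, 245 and 155 in DESeq2, and 452 and 354 in DESeq2 with that block. Keeping genes from 1 count upwards gave 362 and 300, and thinning to the smallest library 47 and 15. With 1 library removed, 8 to 123 genes were higher and 0 to 46 lower. Each of the 6 removals changed a count by over 1.5 times: that of control replicate 1 gave 46 higher and 25 lower, of control 2 gave 8 and 1, of control 3 gave 9 and 1, of NaCl replicate 1 gave 123 and 46, of NaCl 2 gave 22 and 0, and of NaCl 3 gave 9 and 0. Of the 38 transport genes, 0 were higher and 0 lower, against 5 and 4 with the replicate block, 2 and 0 in DESeq2, 4 and 1 in DESeq2 with the block, 1 and 0 under filterByExpr, and 2 and 1 when genes from 1 count upwards were kept. The cause was not tested. Depth limits *Atp1b1* and the control level of *Fxyd2* most.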
